A study of Mus musculus with 6 samples.

Results

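The 10 genes described here build the major histocompatibility complex (MHC) class I antigen presentation pathway, from the heavy chains to the transcription factor that drives them. They were *H2-K1*, *H2-D1*, *H2-T23*, *H2-Q4*, *B2m*, *Tap1*, *Tap2*, *Tapbp*, *Nlrc5* and *Erap1*, chosen by name, and all 10 were found among the 46603 genes of the count files. Poly(A) RNA had been sequenced from enteric glial cells (EGCs) grown out of neurospheres, which had been made from digested total intestines of mouse embryos (C57BL/6J, E14.5) with no sorting step named. EGCs are the glia that support the neurons of the gut. There were 3 control libraries, labelled NIL, and 3 libraries of EGCs exposed to lipopolysaccharide (LPS), a component of the bacterial cell wall, at 100 ng/ml for 12 h. The series addressed how EGCs act on monocytes and macrophages, and the present comparison shows what LPS did to class I transcripts in these cultures.

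Class I molecules carry short peptides from proteins made inside the cell to the surface, where CD8+ T cells and natural killer cells read them. Proteasomes cut the peptides, the TAP transporter moves them into the endoplasmic reticulum, the peptidase ERAP1 trims them, and tapasin holds the transporter and the empty class I molecule together until a heavy chain and beta-2 microglobulin close around a peptide. Neural cells usually hold little class I at rest, and interferons and NF-κB are the known inducers of its genes.

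All 10 genes rose with LPS. The median log2 fold change over the 10 was 2.86, against -0.02 over all 15226 genes tested, and the values ran from 1.67 for *Tap2* to 5.36 for *H2-Q4*. All 10 passed the low-count filter and were called higher (edgeR quasi-likelihood test, adjusted p below 0.05), and none was called lower. Of all genes tested, 9.09% were called higher, 6.71% lower and 15.8% in either direction, and with the replicate block all 10 were again among the 2343 genes called higher, against 2273 called lower. In all 10 genes every LPS library lay above every control library, which was the case for 19.3% of the genes tested, and none of the 10 showed the reverse, as 19.4% did. Together the 10 genes took 0.129% to 0.165% of all counts in the control libraries and 0.794% to 0.839% in the LPS libraries.

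**Figure D1:**
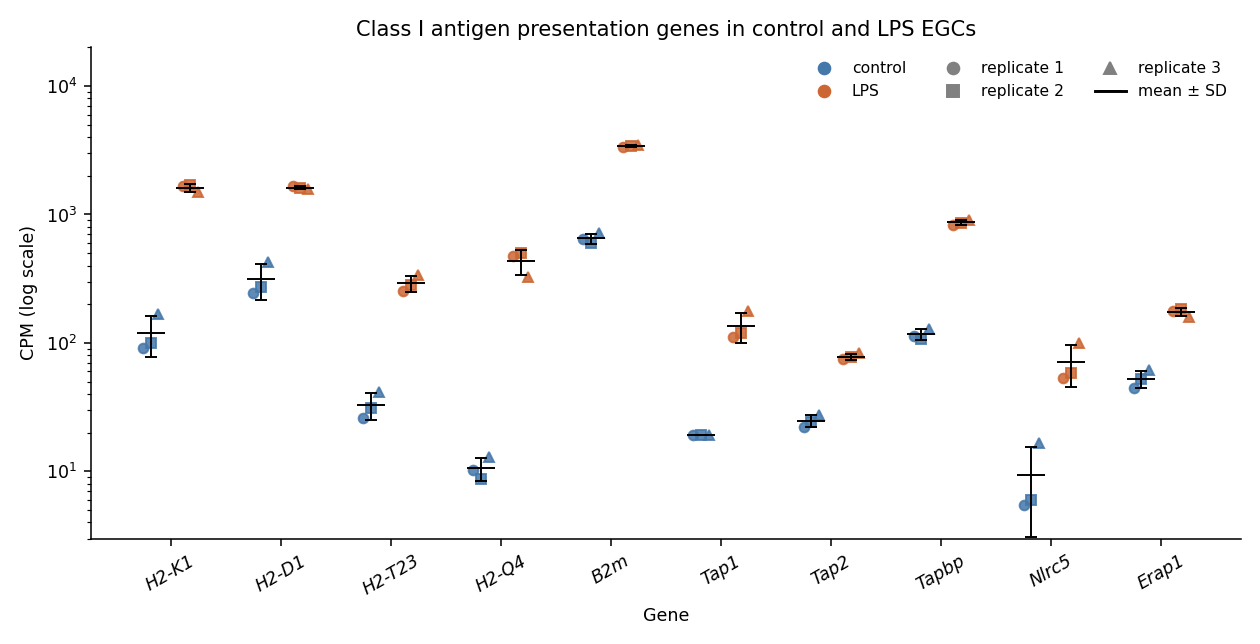
CPM (counts scaled to library size, log axis) of the 10 class I genes in each of 3 control and 3 LPS libraries, with mean ± SD as black bars and the replicate number as marker shape. Each LPS point of a gene lies above its control points, and *Nlrc5* has the widest control spread on this log axis, from 5.47 to 16.6 CPM.

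The library totals lay between 18775316 and 23664312 counts, so each of the 10 genes rested on more than 100 counts in every library. Values are CPM on library sizes corrected for composition, given in the order of replicates 1, 2 and 3. The labels do not say whether replicates came from separate embryos or cultures, so p-values measure the spread between these libraries, which may be technical. The glial markers *Sox10*, *Erbb3* and *Foxd3* were detected in all libraries, but so were macrophage and mesenchymal markers, and in such bulk samples fewer cells of a type and less RNA per cell cannot be told apart. The summed CPM of 12 macrophage markers was 3987, 5146 and 12144 in controls and 3982, 5165 and 19658 with LPS, so replicate 3 stood apart from the others in both groups.

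The heavy chains form the peptide groove. *H2-K1* (chr17:33996017-34000347, minus strand, GRCm38), a classical heavy chain of this strain, was at 91.1, 100.4 and 167 CPM in the controls and at 1673, 1684 and 1485 CPM with LPS. Its control level was highest and its LPS level lowest in replicate 3, and the groups lay far apart, 13.5-fold by the fit (log2 fold change 3.76, SE 0.27, adjusted p = 0.00119). *H2-D1* (chr17:35262730-35267499, plus strand), the other classical heavy chain, was at 246, 272 and 429 CPM and rose to 1660.4, 1615 and 1581 CPM. Its LPS libraries lay within a narrow range while control 3 was above the other controls, and the log2 change was 2.36 (SE 0.23, adjusted p = 0.00306).

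The non-classical heavy chains started lower. *H2-T23* (chr17:36029773-36032855, minus strand), which encodes the Qa-1 molecule read by inhibitory receptors of natural killer cells, rose from 25.9, 31.1 and 41.4 CPM to 256, 285 and 337 CPM. Replicate 3 was the highest library in both groups, and the log2 change was 3.16 (SE 0.21, adjusted p = 0.000921). *H2-Q4* (chr17:35379617-35385290, plus strand), of the Q region, went from 10.2, 8.68 and 12.9 CPM to 477, 506 and 324 CPM. This was the steepest rise of the 10 genes, 41.0-fold (log2 fold change 5.36, SE 0.26, adjusted p = 3e-04), with LPS 3 clearly below the other LPS libraries.

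*B2m* (chr2:122147686-122153083, plus strand), the light chain shared by all class I molecules, was the most abundant of the 10 genes before and after LPS. It was at 644, 596 and 712 CPM in the controls and at 3340.0, 3383 and 3503 CPM with LPS. Both groups were tight, and the log2 change was 2.39 (SE 0.11, adjusted p = 0.00026).

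Promoter sequence was available from RefSeq (GRCm38.p6, 250 bases before to 50 bases after the transcription start) for 8 of the 10 genes, all but *Tap2* and *Nlrc5*. The stretches of *H2-K1*, *H2-Q4* and *B2m* are shown because they hold a match to the NF-κB consensus and no annotated exon of their own gene. They are written 5′ to 3′ along the gene, at chr17:34000353-34000472 on the minus strand, chr17:35379429-35379548 on the plus strand and chr2:122147547-122147666 on the plus strand, and capitals mark matches to the NF-κB consensus and to interferon-type motifs.
H2-K1: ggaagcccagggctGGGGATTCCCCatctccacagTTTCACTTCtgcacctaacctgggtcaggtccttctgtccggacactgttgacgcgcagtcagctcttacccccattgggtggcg
H2-Q4: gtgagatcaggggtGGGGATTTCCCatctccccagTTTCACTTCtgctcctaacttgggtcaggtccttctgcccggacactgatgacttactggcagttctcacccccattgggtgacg
B2m: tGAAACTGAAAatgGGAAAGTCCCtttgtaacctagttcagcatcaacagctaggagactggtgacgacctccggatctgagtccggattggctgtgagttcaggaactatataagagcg

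Both strands of the 300-base windows were searched, and overlapping matches of one motif were joined. The NF-κB consensus was found in 4 of the 8 genes, *H2-K1*, *H2-D1*, *H2-Q4* and *B2m*, and in 4.35% of all 27025 promoters. An interferon-type motif was found in 6 of the 8 and in 10.4% of all promoters. It was spelled GAANNGAAA or the same with a further A ahead of the NN. Because the spellings were widened after these windows had been seen, the counts among the 8 genes are no test against all promoters. The sites of *H2-K1*, *H2-D1* and *H2-Q4* are also nearly alike in letters, so they do not count as independent. The shorter spelling was in *H2-K1*, *H2-D1* and *H2-Q4* (7.56% of all promoters) and the longer one in *H2-T23*, *B2m* and *Erap1* (3.49%). In the 3 heavy chain genes with both motifs the NF-κB match came first and the interferon-type match followed a few bases closer to the start. The corresponding sites of the other genes are shown so that the letters can be compared, with *H2-D1* on chr17:35262916-35262940 and chr17:35262937-35262959 (plus strand), *H2-T23* on chr17:36032809-36032832 (minus strand) and *Erap1* on chr13:74639842-74639865 (plus strand). The sites of *H2-D1*, *H2-T23* and *Erap1* lie before or at the RefSeq start but inside the genes as GENCODE annotates them, and those of *H2-D1* in a stretch that holds an annotated exon.
H2-D1, NF-κB: cagggctGGGGATTCCCCatctcct
H2-D1, interferon type: tcctcagTTTCACTTCtgcacct
H2-T23, interferon type: ctactgcTTTCTCTTTCataaaga
Erap1, interferon type: ccttcacTTTCACTTTCggtcccg

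The 5-letter core TGACG of a CRE element was in 5 of the 8 windows (21% of all promoters), CCAAT was in 7 (37.9%) and the motif TTCNNNGAA in none (8.47%). The windows of *Tap1* and *Tapbp* held neither the NF-κB consensus nor the interferon-type spellings. Matches describe letters in these windows and not bound sites, and binding was not measured.

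**Figure D2:**
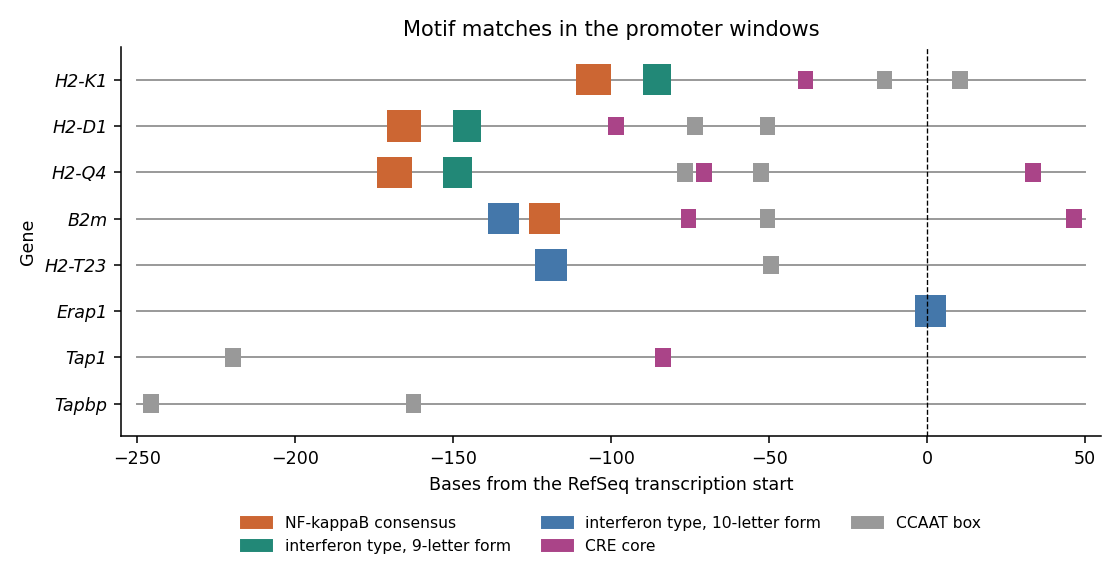
Positions of motif matches in the promoter windows of the 8 class I genes, in bases from the RefSeq transcription start (dashed line at 0). In *H2-K1*, *H2-D1* and *H2-Q4* an NF-κB match (from -111, -171 and -174) is followed by a 9-letter interferon-type match (from -90, -150 and -153), while *B2m* has the 10-letter form upstream of its NF-κB match.

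*Tap1* and *Tap2* encode the chains of the peptide transporter and lie close together on chromosome 17, with *Psmb8* between them (chr17:34187553-34197225 and chr17:34203527-34216321, both on the plus strand). *Tap1* was at 19.2, 19.3 and 19.1 CPM in the controls, nearly the same in each, and at 110.3, 119 and 177 CPM with LPS, with LPS 3 highest (log2 fold change 2.82, SE 0.20, adjusted p = 0.00109). *Tap2* rose less, from 22.1, 24.4 and 27.4 CPM to 74.5, 77.3 and 83.0 CPM (log2 fold change 1.67, SE 0.10, adjusted p = 0.000684). The ratio of *Tap1* to *Tap2* counts, which does not depend on library scaling, was 0.868, 0.788 and 0.694 in the controls and 1.48, 1.55 and 2.13 with LPS. *Tap2* thus had more counts than *Tap1* in every control library and fewer in every LPS library. On the log2 scale the ratio rose from -0.36 ± 0.16 to 0.76 ± 0.29 (mean ± SD, n = 3 each), a difference of 1.12, with p = 0.1 in an exact two-sided permutation test, the smallest value that 3 against 3 libraries can give.

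*Tapbp* (chr17:33915899-33929292, plus strand) encodes tapasin. It was at 113, 108 and 129 CPM in the controls and at 828, 864 and 911 CPM with LPS, and its log2 fold change of 2.89 had one of the smallest errors among the 10 genes (SE 0.11, adjusted p = 0.000148). *Erap1* (chr13:74639568-74693201, plus strand), the peptidase that shortens peptides in the endoplasmic reticulum, rose from 44.6, 52.0 and 61.1 CPM to 178, 183 and 160.1 CPM. The distance between its groups was the smallest after *Tap2* (log2 fold change 1.72, SE 0.13, adjusted p = 0.00155).

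*Nlrc5* (chr8:94434356-94527272, plus strand) encodes the transactivator that works at class I promoters, as CIITA does for class II. It was the least abundant of the 10 genes per length, at 5.47, 6.02 and 16.6 CPM in the controls and 53.7, 58.1 and 100.2 CPM with LPS. Replicate 3 was the highest in both groups, and the groups did not overlap (log2 fold change 2.92, SE 0.53, adjusted p = 0.0202). Its call was lost when control 1 (adjusted p = 0.0753), control 2 (0.0934), LPS 1 (0.0541) or LPS 2 (0.0658) was left out, and held with the replicate number as a block (0.00141). The log2 fold change of *Nlrc5* lay between 2.57 and 3.63 in the analyses without 1 library. No call of the other 9 genes was lost in any of 15 alternative analyses.

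Levels of different genes were compared per kilobase of exon sequence. In the controls the order by mean level was *B2m* (757 CPM per kb), *H2-D1* (123), *H2-K1* (40.7), *Tapbp* (32.2), *H2-T23* (11.4), *Erap1* (7.22), *Tap2* (6.52), *H2-Q4* (4.09), *Tap1* (3.50) and *Nlrc5* (1.10). The ranges of *H2-K1* and *Tapbp*, of *Erap1* and *Tap2*, and of *H2-Q4* and *Tap1* overlapped, so the order of these neighbours was within the spread between libraries, although *Erap1* was above *Tap2* in each of the 3 control libraries. With LPS the first 4 kept their places, at 3964 CPM per kb for *B2m*, 628 for *H2-D1*, 549 for *H2-K1* and 239 for *Tapbp*. *H2-Q4* moved from the eighth to the fifth place (168 CPM per kb), above *H2-T23* (101), followed by *Tap1* (24.8), *Erap1* (23.8), *Tap2* (20.7) and *Nlrc5* (8.32). Here only the ranges of *Tap1* and *Erap1* overlapped between neighbours, and *Tap1* was above *Erap1* in LPS 3 alone. *H2-Q4* went from the 45.3rd to the 98.5th percentile of length-scaled levels, and *B2m* from the 99.8th to the 99.98th.

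The make-up of the heavy chain transcripts changed with the level. Of the summed counts of the 4 heavy chain genes, *H2-D1* took 66.0% in each control library and 40.8%, 39.5% and 42.4% with LPS. *H2-K1* rose from 24.4%, 24.4% and 25.7% to 41.2%, 41.2% and 39.8%, so that *H2-D1* and *H2-K1* had nearly equal counts with LPS. The share of *H2-Q4* went from 2.73%, 2.10% and 1.99% to 11.7%, 12.4% and 8.70%. The share of *H2-T23* was 6.93%, 7.54% and 6.36% in the controls and 6.29%, 6.97% and 9.04% with LPS, and here the groups overlapped.

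**Figure D3:**
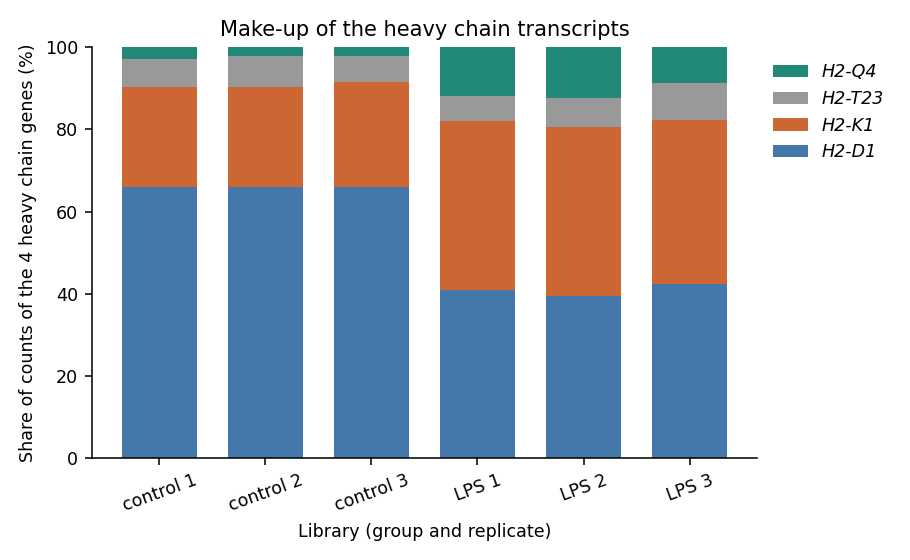
Share of each gene (%) in the summed counts of *H2-D1*, *H2-K1*, *H2-T23* and *H2-Q4*, as stacked bars for the 6 libraries. *H2-D1* takes 66.0% of each control bar and between 39.5% and 42.4% of the LPS bars, where *H2-K1* and *H2-Q4* take more.

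The summed heavy chain counts also rose more than those of *B2m*. Their ratio was 0.580, 0.692 and 0.914 in the controls and 1.22, 1.21 and 1.06 with LPS, so every LPS library lay above every control library. The counts are not scaled to length, and *B2m* has 0.86 kb of exon sequence against 2.58 to 2.94 kb for each heavy chain. Only the change of the ratio can therefore be read. On the log2 scale the means were -0.48 ± 0.33 and 0.22 ± 0.11 (SD, n = 3 each), a difference of 0.70 (exact two-sided permutation test, p = 0.1, the smallest possible). With all *H2* heavy chain genes of the files in the sum the difference was 0.81.

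The class I genes resemble each other, which limits these values. Among 50-base words of the annotated transcripts, 9.63% of those of *H2-K1*, 12.8% of *H2-D1*, 13.6% of *H2-T23* and 21.8% of *H2-Q4* occurred in another gene, against none for *B2m*, *Erap1* and *Nlrc5*. The treatment of reads with several alignments was not given in the sources used here, and neither was the strand setting. Strand bears on *Tap1* (overlapped by *Psmb9*), *B2m* (*Patl2*), *Erap1* (*Cast*), *H2-T23*, *H2-Q4*, *Tap2*, *Tapbp* and *Nlrc5*, all of which overlap an annotated gene on the other strand. *Tapbp* and *Nlrc5* also overlap a gene on their own strand (*Zbtb22* and *Mir7072*), which no strand setting would separate.

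The other class I and class I-like genes were followed with a list of 26, of which 23 were in the files and 13 passed the low-count filter. Of these 13, 9 were called higher, none lower and 4 were not called, with a median log2 fold change of 3.24. The Q region genes near *H2-Q4* had almost no signal in the controls and differed in what they reached with LPS. *H2-Q6* was at 0.339, 0.310 and 0.124 CPM in the controls and at 206, 201 and 50.7 CPM with LPS (log2 fold change 9.19, SE 0.82, adjusted p = 0.00239). *H2-Q7* was at 0.636, 0.531 and 0.744 CPM and rose to 159, 164 and 43.9 CPM (log2 fold change 7.57, SE 0.68, adjusted p = 0.00239). In both, LPS 3 was far below the other LPS libraries but still far above each control. *H2-Q2* and *H2-Q1*, which did not pass the filter and are given here after their values were seen, had 81, 101 and 1 counts and 8, 27 and 0 counts with LPS, against at most 3 in a control library.

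*H2-Q5*, annotated as a polymorphic pseudogene, had at most 1 count in a control library and reached 22.5, 24.7 and 12.7 CPM with LPS (adjusted p = 0.000634), at least 156-fold higher when the controls are set to the floor of 3 counts per library. *H2-M2* was at 0.0424, 0.0443 and 0.248 CPM in the controls (1, 1 and 6 counts) and at 30.0, 38.7 and 13.9 CPM with LPS. Its log2 fold change was 7.85 (SE 0.71, adjusted p = 0.0024), again with LPS 3 lowest. *H2-T24* showed the reverse order, with 0.678, 0.841 and 1.28 CPM in the controls and 14.6, 19.7 and 77.0 CPM with LPS. Its log2 fold change was 5.30 (SE 0.82, adjusted p = 0.0133) and lay between 4.18 and 5.69 without 1 library. The *H2-T24* call was lost without control 1 (adjusted p = 0.0689) or control 2 (0.0792) and with limma-voom (0.0665). Fitted fold changes of genes with so few control counts depend on the prior count, and between 26.4% and 36.4% of the 50-base words of *H2-Q5*, *H2-Q6* and *H2-Q7* were shared with other genes.

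In the T and M regions, *H2-T22* rose from 31.4, 33.6 and 30.9 CPM to 278, 288 and 339 CPM (log2 fold change 3.24, SE 0.11, adjusted p = 0.000124). *H2-T10*, with which it shares 31.2% of its words, rose by 3.97 on the log2 scale (SE 0.32, adjusted p = 0.00176), and *H2-M3*, which presents formylated bacterial peptides, by 1.91 (SE 0.37, adjusted p = 0.0235). The *H2-M3* call was lost without control 1, control 2, LPS 1 or LPS 2, with adjusted p up to 0.104. Among the class I-like genes *Cd1d1*, which presents lipids, had a small increase (log2 fold change 0.47, SE 0.11, adjusted p = 0.037) that did not hold in 8 of the 15 alternatives. *Mr1*, which presents vitamin metabolites, had -0.42 (adjusted p = 0.114), *Fcgrt*, the neonatal Fc receptor chain, -0.17 (adjusted p = 0.159), *Hfe*, which takes part in iron sensing, -0.51 (adjusted p = 0.498) and *H2-Q10* 2.69 (adjusted p = 0.0861). With the replicate block *Mr1* (adjusted p = 0.0306) and *Hfe* (0.0139) were called lower and *H2-Q10* (0.0482) higher, and *Mr1* and *Fcgrt* were called lower under upper-quartile scaling and on library size alone.

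**Figure D4:**
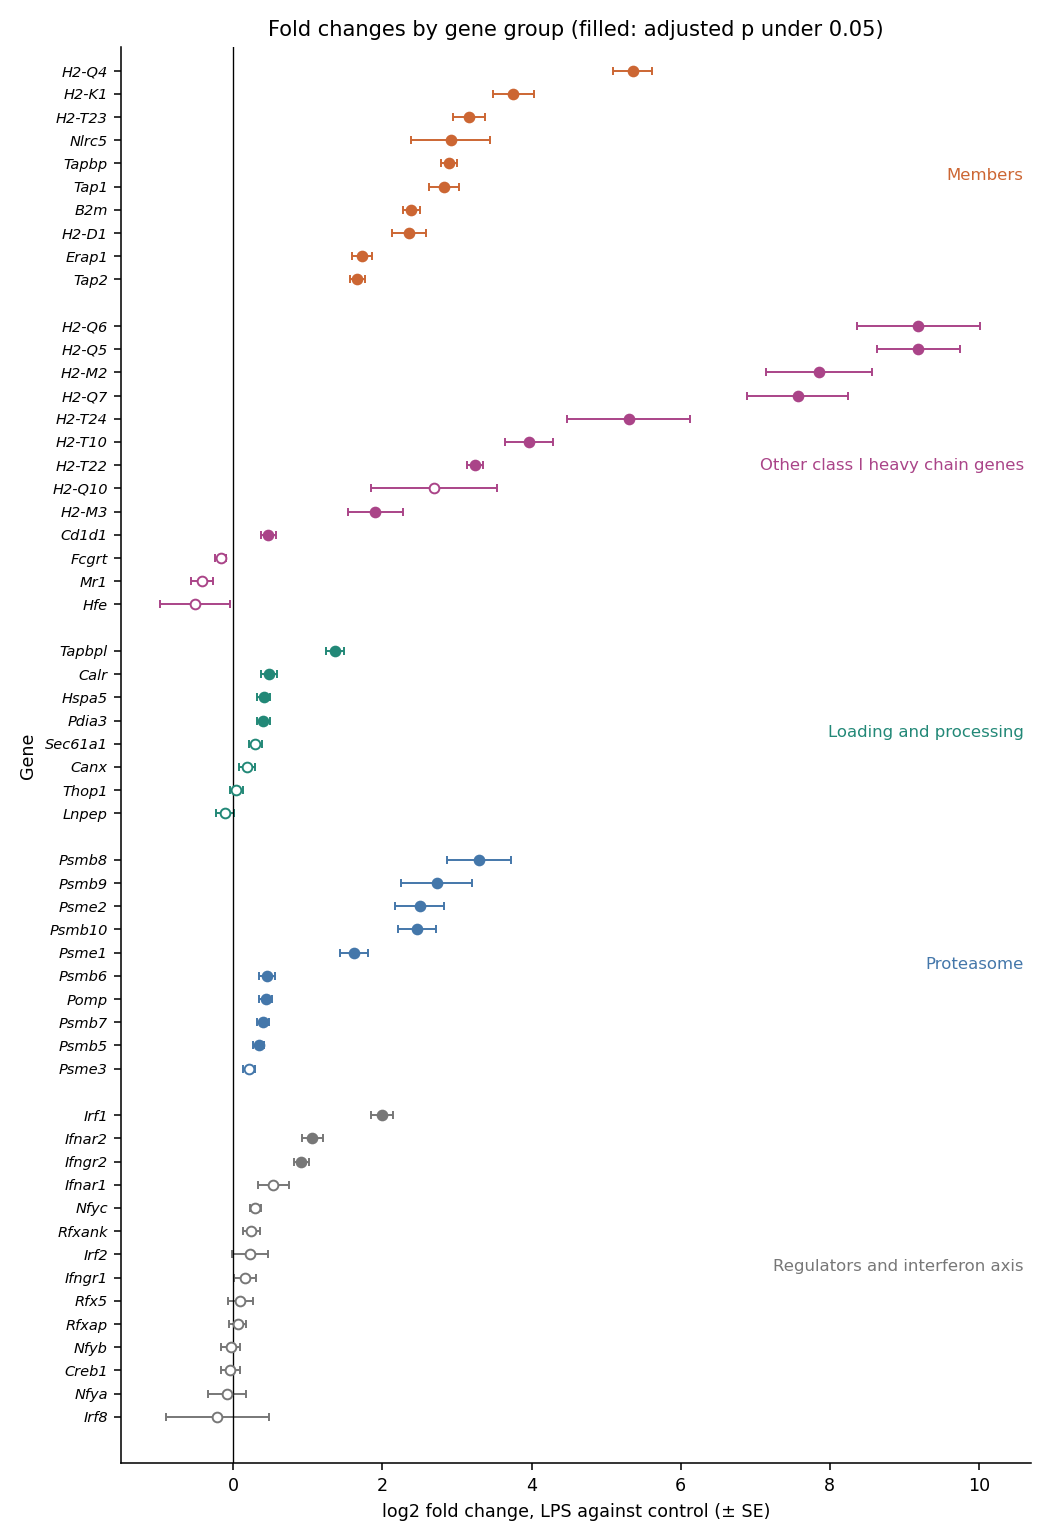
Log2 fold change of LPS against control (± SE) for the 10 class I genes and for genes of 4 further lists of the pathway, with filled points for genes that passed the test. The 10 genes lie between 1.67 and 5.36, *H2-Q5*, *H2-Q6*, *H2-Q7* and *H2-M2* beyond them, and most regulators near 0.

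Genes of the proteasome, which cuts the peptides, rose as well. Of 10 proteasome genes, 9 were called higher and none lower, with a median log2 fold change of 1.03. The 3 subunits that replace the catalytic ones under inflammation rose more than those they replace, with *Psmb8* going from 9.24, 11.6 and 24.5 CPM to 118, 139 and 189 CPM (log2 fold change 3.29, SE 0.43, adjusted p = 0.00801), *Psmb9* by 2.73 (SE 0.47, adjusted p = 0.0178) and *Psmb10* by 2.46 (SE 0.26, adjusted p = 0.00371). The constitutive subunits, *Psmb5*, *Psmb6* and *Psmb7*, rose by 0.34, 0.45 and 0.40. The ratio of *Psmb8* to *Psmb5* counts was 0.162, 0.192 and 0.406 in the controls and 1.62, 1.88 and 2.40 with LPS. On the log2 scale it rose by 3.06 (exact two-sided permutation test, p = 0.1, the smallest possible). These counts are not scaled to length. Per kilobase of exon sequence the mean of *Psmb8* went from 4.47 to 43.9 CPM and that of *Psmb5* from 66.0 to 83.4 CPM, so *Psmb5* stayed the higher. The log2 ratios of *Psmb9* to *Psmb6* and of *Psmb10* to *Psmb7* rose by 2.32 and 2.07, with no overlap between the groups.

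The subunits of the PA28 activator cap, *Psme2* and *Psme1*, rose by 2.50 (SE 0.33, adjusted p = 0.00815) and 1.62 (SE 0.19, adjusted p = 0.0051), while *Psme3*, which forms a nuclear cap, had 0.21 (adjusted p = 0.144) and the assembly factor *Pomp* rose by 0.43 (adjusted p = 0.0243). *Psmb8* and *Psme2* lost their call without control 2 (adjusted p = 0.0546 and 0.0553), and *Psmb9* without control 1, control 2 or LPS 2 (up to 0.0931). The small increases of *Psmb5*, *Psmb6* and *Psmb7* each lost their call in 6 of the 15 alternatives (adjusted p up to 0.113, 0.146 and 0.0975) and that of *Pomp* in 4 (up to 0.114).

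Of 8 loading and trimming genes, 4 were called higher and none lower. *Tapbpl*, which encodes the tapasin-related peptide editor TAPBPR, rose from 12.6, 12.2 and 10.8 CPM to 32.2, 32.8 and 26.7 CPM (log2 fold change 1.37, SE 0.12, adjusted p = 0.00239). The general chaperones *Calr*, *Pdia3* and *Hspa5* rose by 0.47, 0.40 and 0.41 (adjusted p = 0.037, 0.0304 and 0.0319), and each lost its call in 8 of the 15 alternatives. *Canx* (0.19, adjusted p = 0.279), *Sec61a1* (0.29, adjusted p = 0.0752), the aminopeptidase *Lnpep* (-0.11, adjusted p = 0.567) and *Thop1* (0.04, adjusted p = 0.801) were not called, and *Sec61a1* was called higher with the replicate block (adjusted p = 0.0215). The 13 calls in the proteasome and loading lists together fell to 5 without control 1, 3 without control 2, 6 without LPS 1 and 5 without LPS 2, and to 7 on library size alone or with no low-count filter.

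Among 18 regulators of class I genes, 15 passed the filter, 4 of which were called higher and none lower, with a median log2 fold change of 0.23. *Irf1*, which binds interferon-type motifs, rose from 19.0, 19.9 and 26.2 CPM to 85.9, 94.3 and 78.8 CPM (log2 fold change 1.99, SE 0.15, adjusted p = 0.00144). The receptor subunits *Ifnar2* and *Ifngr2* rose by 1.06 (adjusted p = 0.00834) and 0.91 (adjusted p = 0.00505), and the *Ifnar2* call was lost without control 2 (adjusted p = 0.0533).

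The 11 genes not called included the DNA-binding partners of NLRC5 at class I promoters. *Rfx5*, *Rfxap* and *Rfxank* had log2 fold changes of 0.09, 0.06 and 0.24, *Nfya*, *Nfyb* and *Nfyc* of -0.09, -0.04 and 0.30, and *Creb1* of -0.04. *Irf2*, *Irf8*, *Ifngr1* and *Ifnar1* had 0.23, -0.21, 0.16 and 0.54 (adjusted p = 0.569, 0.867, 0.504 and 0.132). With the replicate block *Nfyc* (adjusted p = 0.0347) and *Ifnar1* (0.00598) were called higher. The class II transactivator *Ciita* had 1, 0 and 1 counts in the controls and 8, 3 and 3 with LPS. Of the interferon genes, *Ifng* had no count in any library, which allows up to 3 counts in each, and *Ifnb1* had 17 counts in LPS 3 and none elsewhere.

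Replicate 3 differed from the others in many genes, and in the class I genes most clearly in the controls and the fold changes. Control 3 was the highest control library for 9 of the 10 genes, all but *Tap1*, whereas it was highest for 42.7% of all genes tested. LPS 3 was the highest LPS library for 6 of the 10 (*H2-T23*, *B2m*, *Tap1*, *Tap2*, *Tapbp* and *Nlrc5*) and the lowest for 4 (*H2-K1*, *H2-D1*, *H2-Q4* and *Erap1*), against 44.1% and 42.5% of all genes. The fold change between libraries of the same replicate number was smallest in replicate 3 for 9 of the 10 genes, again all but *Tap1*, and for 35.6% of all genes tested. For *H2-K1* it was 18.4, 16.8 and 8.89, and for *H2-Q4* 46.7, 58.3 and 25.1.

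The macrophage markers moved with the replicate. Their summed level in LPS relative to the control of the same number was 0.999, 1.00 and 1.62-fold in replicates 1, 2 and 3. In replicates 1 and 2, where this sum differed little between the groups, the 10 genes rose 3.37 to 46.7-fold and 3.16 to 58.3-fold. Without replicate 3 in both groups all 10 genes were again called higher, in an analysis of 2 against 2 libraries. *Lyz2* made up most of the sum, however, and single macrophage genes went different ways, with *Adgre1*, the one marker of the 12 that was called (adjusted p = 0.0452), rising from 159, 229 and 472 CPM to 952, 1261 and 3700 CPM and *Mrc1* at 197, 331 and 752 CPM in the controls and 9.29, 10.4 and 131 CPM with LPS (adjusted p = 0.145). The part of the macrophages in the class I levels was not tested.

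**Figure D5:**
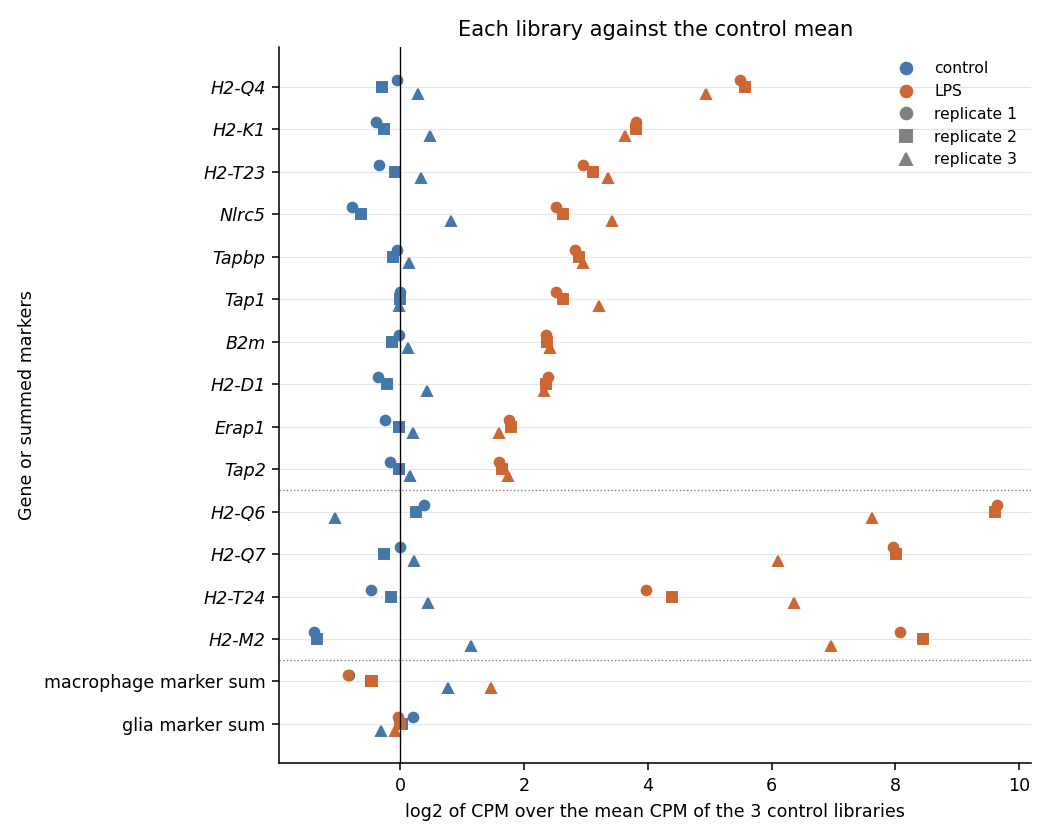
Log2 of the CPM of each library over the mean of the 3 control libraries, for the 10 class I genes, 4 further heavy chain genes and the summed macrophage and glia markers. The LPS points of replicates 1 and 2 stand together in each gene, while LPS 3 (triangle) is lower in *H2-Q4*, *H2-Q6*, *H2-Q7* and *H2-M2* and higher in *Tap1*, *Nlrc5* and *H2-T24*.

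Other cell types were followed with sums of the same kind. The sum of 8 glial markers was between 264 and 377 CPM in the controls and between 306 and 324 CPM with LPS, that of 8 mesenchymal markers between 15603 and 16295 CPM and between 15123 and 15842 CPM. Within these sums *S100b* was called lower (log2 fold change -1.91, adjusted p = 0.0238) and *Fabp7*, *Dcn* and *Pdgfra* higher (1.29, 0.90 and 0.50). Smooth muscle markers fell from between 2290.5 and 2523 CPM to between 640.4 and 911 CPM, and 7 of the 8 were called lower. Of the 15 lymphocyte and dendritic cell markers followed, 11 were at 3 counts or fewer in all 6 libraries, among them *Cd3e*, *Cd3d*, *Cd8a*, *Ncr1*, *Nkg7*, *Cd79a*, *Ms4a1*, *Flt3*, *Xcr1* and *Cd209a*. The other 4 had some signal, with *Zbtb46* at 10.4 to 10.6 CPM in the controls and 6.42 to 7.59 CPM with LPS (called lower, adjusted p = 0.0265), *Itgax* at up to 10.3 CPM, *Cd4* at up to 5.99 CPM and *Cd79b* at up to 0.733 CPM.

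The genes with a profile most like the median class I gene were *Parp10*, *Tor3a*, *Stat2*, *Trim21* and *Parp12*. Likeness was the mean absolute difference over the 6 libraries in centred log2 CPM, and it was 0.0897, 0.0960, 0.107, 0.111 and 0.121 for these genes. Among the 10 genes themselves *Tap1* (0.121) and *Tapbp* (0.122) lay closest to their median and *H2-Q4* (1.30) farthest from it. *Stat2* went from 49.2, 44.4 and 56.3 CPM to 318, 330.0 and 534 CPM, and like *Tap1* and *Nlrc5* it was highest in LPS 3.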

How the data were processed

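Total RNA was enriched for poly(A) RNA with a stranded Illumina kit. The authors trimmed, filtered and cleaned the reads, aligned them to GRCm38 with STAR 2.5.2b and deposited raw counts per gene, 1 file per library. Their processing notes also name featureCounts 1.5.3, with no role given. Strand setting and treatment of multi-mapped reads were not given in the sources used here. A series-wide table was not used.

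Genes with low counts were removed (edgeR 4.0.16 in R 4.3.3, filterByExpr, minimum count 10, minimum total 15), which left 15226 genes. The 3 LPS and 3 control libraries entered a quasi-likelihood F-test of edgeR on TMM-scaled counts (factors 0.917 to 1.08), with group as the term. It was two-sided, p-values were adjusted by the Benjamini-Hochberg method over the 15226 genes, and calls are at adjusted p below 0.05. The SE is the absolute log2 fold change divided by the square root of F. CPM used TMM-scaled library sizes, and exon lengths came from GENCODE M21, which held 98.9% of the gene identifiers. The floor was 3 counts per library, which covers counting error only. The procedure was also run on simulated counts. Those libraries were independent, without the shared deviations of replicate 3, so the run does not bear on the calls here.

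Libraries with the same replicate number deviated together from their group means (correlations 0.513, 0.334 and 0.613), each above 0.1. Numbers 1 and 2 correlated about as much across (0.419 and 0.323), so the values set replicate 3 apart but do not tell 1 from 2. The comparison was fitted without pairing, and with the replicate number as a block as an alternative.

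The class I genes, the further lists and the tests were chosen with earlier results of these data known. Named were the 10 genes, the called genes of the further lists with any uncalled ones counted, the 5 genes most like the class I median, and cell type markers. The 11 uncalled regulators were added after their values had been seen. A called regulator and some cell type markers are not reported here by name. Motif spellings were widened after the promoter windows had been seen. Alternatives were RLE, upper-quartile or no scaling, other low-count filters, DESeq2 1.42.0, limma-voom (limma 3.58.1), the replicate block, and leaving out libraries.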

Additional observations from a re-analysis of the deposited data

How the results depend on the processing

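Of the 10 class I genes, 9 or 10 were called higher and none lower in each of 15 alternatives, and *Nlrc5* alone lost its call, in 4 of the 6 analyses without 1 library. Their median log2 fold change stayed between 2.58 and 2.94, and no value of the 10 changed sign. The heavy chain to *B2m* log2 difference lay between 0.55 and 0.87 without 1 library and at 0.94 without replicate 3, and the *Tap1* to *Tap2* difference between 0.96 and 1.22 and at 0.87. With the replicate block both are 0.70 and 1.12 by construction, as every replicate number has a library in each group. An exact sign-flip permutation test gave p = 0.25 for both, the smallest possible with 3 pairs.

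Counts over all genes moved more, and the cause was not tested. Genes called higher and lower numbered 1384 and 1022 in the main analysis, 2079 and 1673 with DESeq2, 2343 and 2273 with the replicate block, 3498 and 3159 without replicate 3 in both groups, and between 379 and 1964 and between 112 and 1426 without 1 library. The lowest counts were without control 2. Upper-quartile scaling gave 1050 higher and 1589 lower, and library size alone 986 and 2054, where the median of all genes shifted to -0.12 and -0.18.

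Of the other class I genes 2 were called lower under upper-quartile scaling and on library size alone (*Fcgrt* and *Mr1*), and 2 with the replicate block and without replicate 3 (*Hfe* and *Mr1*). The loading and proteasome calls were 7 on library size alone, 7 with no low-count filter and 3 to 13 without 1 library. Among the 56 pathway genes tested, the replicate block changed the calls of *Hfe*, *Mr1*, *H2-Q10*, *Sec61a1*, *Nfyc* and *Ifnar1* and no other call. Without replicate 3, 7 regulators were called higher and 1, *Irf8*, lower.

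Uncalled genes near 0 changed sign. With upper-quartile scaling and on library size alone *Thop1* had -0.067 and -0.12, *Rfx5* -0.011 and -0.064, and *Rfxap* -0.045 and -0.097. *Nfyb* had 0.13 without replicate 3. Without 1 library the values ran from -0.012 to 0.093 for *Thop1*, -0.044 to 0.20 for *Rfx5*, -0.0074 to 0.13 for *Rfxap*, -0.12 to 0.072 for *Nfyb*, -0.31 to 0.19 for *Nfya*, -0.15 to 0.056 for *Creb1* and -1.16 to 0.45 for *Irf8*.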
